A study of Mus musculus with 20 samples.

Results

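A set of 10 genes with a measured peak at the 2-cell stage was examined across mouse preimplantation development: Dr1, Spz1, Fundc1, Nmnat1, Tnfrsf12a, Zfp639, Zfp54, Rrp9, Ercc4 and Ifng. They are 10 of the 12393 genes that the array names through a probe set (a group of short probes read as one value) with a single gene symbol. They were selected on measured values of these arrays, a highest mean intensity at the 2-cell stage, so that peak is described here and not tested. The 10 genes carry 15 probe sets, of which all 15 passed the intensity filter used for testing: 5 genes have 2 probe sets and 5 have 1. The selection statement held for 12 of the 15 probe sets, and for at least 1 probe set of every gene. The remaining 3, with 1 each for Dr1, Fundc1 and Ercc4, had their highest mean at another stage.

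RNA of mouse oocytes, 1-cell embryos, 2-cell embryos, 8-cell embryos and blastocysts was hybridized to the Affymetrix MOE430A array, with 4 arrays at each of the 5 stages and 20 in all. Total RNA from every stage went through a pair of in vitro transcription rounds, a linear amplification needed because an embryo holds little RNA. The labels name no strain, no treatment of the females and no number of oocytes or embryos per array, and do not say whether arrays of a stage come from separate collections. The p-values below therefore measure only the spread between arrays, which may be technical. The values are probe set intensities, a brightness without a fixed unit, scaled on every array to a common trimmed mean, so each is a share of the array's total signal. Fewer cells of a type and less RNA per cell cannot be told apart from such values.

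In the mouse the 2-cell stage is when the embryo's own genome is switched on in its major wave, while the RNA stored by the oocyte is being degraded. The genes examined here come from unrelated processes. Dr1 is the beta subunit of negative cofactor 2, which with Drap1 holds the TATA-binding protein on promoters in an inactive form. Spz1 is a basic helix-loop-helix zipper factor known from testis, and Zfp639 and Zfp54 are zinc finger proteins. Rrp9 is a protein of the U3 small nucleolar ribonucleoprotein, which processes ribosomal RNA, and Ercc4 is the XPF subunit of a DNA repair endonuclease. Fundc1 is a receptor for mitophagy on the outer mitochondrial membrane, and Nmnat1 makes NAD in the nucleus. Tnfrsf12a, also called Fn14, is the receptor for the cytokine TWEAK, and Ifng encodes interferon gamma, a cytokine of T and NK cells.

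Their promoters did not share one type of sequence. RefSeq promoter windows of GRCm38.p6, 300 bases long with 250 before and 50 after the annotated start, were found for all 10 genes as 13 windows. The following are the 120 bases just before the start of 5 genes, chosen because they span the range from CpG-free to CpG-rich and hold the motifs discussed next. Each is written 5′ to 3′ on the gene's strand, and capitals mark any of the 6 motifs searched on both strands.
Spz1: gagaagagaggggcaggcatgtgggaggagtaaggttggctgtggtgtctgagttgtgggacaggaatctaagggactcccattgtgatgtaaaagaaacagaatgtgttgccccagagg
Ifng: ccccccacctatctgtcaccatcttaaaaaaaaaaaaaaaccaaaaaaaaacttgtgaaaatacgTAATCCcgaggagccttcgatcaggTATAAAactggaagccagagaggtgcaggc
Rrp9: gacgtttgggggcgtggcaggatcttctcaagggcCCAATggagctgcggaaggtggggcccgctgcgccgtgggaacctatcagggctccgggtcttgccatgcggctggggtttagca
Tnfrsf12a: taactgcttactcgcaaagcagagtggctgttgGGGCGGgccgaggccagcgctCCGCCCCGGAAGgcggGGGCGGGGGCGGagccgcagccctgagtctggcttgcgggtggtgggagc
Dr1: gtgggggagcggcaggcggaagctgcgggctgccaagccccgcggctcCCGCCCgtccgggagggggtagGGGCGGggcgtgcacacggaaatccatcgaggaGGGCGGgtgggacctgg
In GRCm38.p6 these stretches are chr13:92576233-92576352, minus strand for Spz1, chr10:118440926-118441045, plus strand for Ifng, chr9:106477189-106477308, plus strand for Rrp9, chr17:23677450-23677569, minus strand for Tnfrsf12a and chr5:108268777-108268896, plus strand for Dr1. All lie directly upstream of the annotated gene. The other genes lie at chr3:32510264-32520833 (Zfp639), chr4:149467569-149485210 (Nmnat1), chr16:13109366-13152009 (Ercc4), chr17:21423227-21435384 (Zfp54) and chrX:17519967-17572329 (Fundc1).

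The Spz1 window held 0 CpG dinucleotides, against a median of 7 over all 32851 windows, whereas the Dr1 window held 31, more than in 89.4% of them. The CpG count was 22 for Rrp9, 20 for Tnfrsf12a and 7 for Ifng. The motif TATAAA, the letters of a TATA box, was found in the window of 1 of the 10 genes, Ifng, 30 bases before its start, and in 13.6% of all windows. GGGCGG, the letters of a GC box, was in windows of 4 genes (Dr1, Tnfrsf12a, Nmnat1 and Zfp639) and in 35.7% of all windows. In Dr1 it lay 17, 50 and 72 bases before the start, the last on the other strand. CCGGAAG, the core of many ETS factor sites, was in windows of 3 genes (Dr1, Tnfrsf12a and Nmnat1) and in 8.86% of all windows. In Tnfrsf12a it lay 61 bases before the start and shares its first base with a GGGCGG match on the other strand. CCAAT was in windows of 3 genes (Nmnat1, Rrp9 and Ercc4) and in 37.4% of all, with the Rrp9 matches 126 and 85 bases before the start. TAATCC, the letters bound by OTX-type homeodomains, was in windows of 3 genes (Ifng, Ercc4 and Zfp54) and in 7.06% of all, and lay 55 bases before the Ifng start. AAGGTCA, letters bound by some nuclear receptors, was in windows of 0 of the 10 genes and in 4.72% of all windows. These are matches of letters in a window, and no binding was measured.

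The fall in oocyte markers and the rise in later markers followed the stage labels. The summed intensity of 8 oocyte genes was 29208.8 to 33379.5 in oocytes and 214 to 287 in blastocysts. The sum of 7 genes known from the 2-cell embryo was 3723 to 6688 at the 2-cell stage against 435 to 544 in oocytes. The sum of 10 genes of 8-cell embryos and blastocysts was 12383 to 14039 in blastocysts. Arrays of a stage correlated at r = 0.931 to 0.971 over the probe sets, and 0 pairs of arrays were identical. Scaling to the hybridization controls, which are added to every sample, in place of the trimmed mean moved the median log2 change of all tested probe sets from 0.11 to -0.69 for 1-cell minus oocyte and from -0.21 to 0.64 for blastocyst minus 8-cell. With that scaling the share of calls that were higher went from 51.1% to 0.731% for 1-cell minus oocyte, from 51.9% to 65.2% for 2-cell minus 1-cell, from 48.0% to 21.9% for 8-cell minus 2-cell, from 50.9% to 39.8% for 8-cell minus 1-cell and from 43.4% to 95.3% for blastocyst minus 8-cell. Centring each array on its median moved that last share to 63.0%. The Actb 3′ to 5′ signal ratio, a measure of RNA length, averaged 4.74 in oocytes, 4.24, 4.63 and 3.67 in 1-cell, 2-cell and 8-cell embryos and 1.99 in blastocysts, while the Gapdh ratio averaged 4.7, 4.76, 5.43, 1.28 and 5.81 in the same order. The 8-cell arrays stood apart in the Gapdh ratio and the blastocyst arrays in the Actb ratio. The part of RNA quality in the comparisons with those stages was not tested. All changes below are therefore relative to the rest of the array.

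Among the regulators of transcription, the Dr1 probe set 1416019_at read 1305, 1494, 1624 and 1379 on the 4 arrays of 2-cell embryos. It read 50.9, 56.1, 65.6 and 49.4 in oocytes and 54.6, 45.4, 45.9 and 58.1 in 1-cell embryos. It then read 75, 59.1, 81.8 and 61.6 in 8-cell embryos and 49.2, 60.8, 60 and 75.1 in blastocysts. The 2-cell mean of 1450.3 ± 139 (SD, n = 4) was 20.9 times the mean of the next stage, the 8-cell embryo, and the other 4 stages overlapped neighbour by neighbour. On the log2 scale used throughout, log2(intensity + 12.15), which understates changes of dim probe sets, the 2-cell minus 1-cell difference was 4.53 and the 8-cell minus 2-cell difference -4.17.

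The second Dr1 probe set, 1416018_at, gave another time course. It read 28, 5.3, 14.3 and 9.2 in oocytes and 1.2, 2.2, 6.9 and 0.7 in 1-cell embryos, all at or under the filter level of 32.9. It read 198, 245, 322 and 259.6 at the 2-cell stage, 143, 164, 187 and 215 at the 8-cell stage and 248, 282, 324 and 279 in blastocysts. Both probe sets were over the filter level on all 2-cell, 8-cell and blastocyst arrays. The blastocyst and 2-cell arrays overlapped for 1416018_at, whereas those of 1416019_at did not. In the fit across all probe sets with limma, its log2 change from 1-cell to 8-cell was 3.67 ± 0.23 (SE) with adjusted p = 7.26e-14, and from oocyte to blastocyst 3.55 ± 0.23 (SE) with adjusted p = 2.53e-13. For 1416019_at the same changes were 0.36 (adjusted p = 0.0727) and 0.11 (adjusted p = 0.597), so neither passed. The oocyte to 1-cell change of 1416018_at was -0.77 ± 0.23 (SE) with limma's adjusted p = 0.0113. That call was lost in these settings. With limma it was -0.28 (adjusted p = 0.164) with the larger pseudocount and -0.54 (adjusted p = 0.0710) without oocyte replicate 1. The 8-cell to blastocyst change of 1416018_at was 0.65 ± 0.23 (SE) with limma's adjusted p = 0.0242. That call was lost in these settings. With limma it was 0.68 (adjusted p = 0.0992) with the smaller pseudocount, 0.56 (adjusted p = 0.0769) without 8-cell replicate 1 and 0.62 (adjusted p = 0.0525) without 8-cell replicate 2. In limma it was 0.59 (adjusted p = 0.0709) without blastocyst replicate 3. Both probe sets are annotated to the same RefSeq transcript, and which stretch of it each one covers was not analysed here.

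Spz1 read 924, 771, 493 and 732 in 2-cell embryos. Before that it read 3, 4, 5 and 2 in oocytes and 9.1, 6, 4.4 and 3.8 in 1-cell embryos, and the values of these stages overlapped near the bottom of the scale. It read 40.6, 38.8, 31.9 and 37.2 in 8-cell embryos and 1.1, 4.3, 2.7 and 14.7 in blastocysts. Every 8-cell array lay above every oocyte, 1-cell and blastocyst array. In limma the 8-cell minus 1-cell change was 1.46 ± 0.24 (SE) with adjusted p = 6.72e-06, and the blastocyst minus 8-cell change -1.52 ± 0.24 (SE) with adjusted p = 1.24e-05. Spz1 was over the filter level on 3 arrays outside the 2-cell stage and so was tested only through the arrays on which it was chosen. With no intensity filter limma gave adjusted p = 1.36e-05 and 2.58e-05. The 2-cell mean was 19.7 times the 8-cell mean. Of 7 sperm genes listed as markers because Spz1 is known from testis, 4 were at or under the filter level on every 2-cell array (Tnp1, Tnp2, Odf1 and Smcp). The others (Prm1, Prm2 and Akap4) were not over it on every 2-cell array. The summed level of the list was 88.8 to 159 there against 86.1 to 124 in oocytes. It was 91.5 to 203 in 1-cell embryos, 122 to 248 in 8-cell embryos and 76 to 160 in blastocysts. Akap4 was over the filter level on every 1-cell and 8-cell array.

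The zinc finger gene Zfp639 was measured above the filter level at every stage. It read 109, 90, 71.3 and 106 in oocytes, 90.8, 102, 77.8 and 63.2 in 1-cell embryos and 782, 915, 608 and 796 in 2-cell embryos. It then read 75.9, 77.3, 80.1 and 101 at the 8-cell stage and 128, 124, 123 and 181 in blastocysts. Its 2-cell mean was 5.58 times that of blastocysts, the lowest such ratio among the 10 representative probe sets (the brighter probe set of each gene). Zfp639 rose again after the 8-cell stage, by 0.65 ± 0.19 (SE) on the log2 scale with limma's adjusted p = 0.00729, and all 4 blastocyst arrays lay above all 4 of the 8-cell stage. Its blastocyst minus oocyte change of 0.51 ± 0.19 (SE) also passed with limma (adjusted p = 0.0236). That second call was lost with limma without oocyte replicate 3, at 0.40 (adjusted p = 0.101), without blastocyst replicate 4, at 0.38 (adjusted p = 0.1), and with hybridization control scaling, at 0.28 (adjusted p = 0.461).

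Zfp54 read 467, 494, 310.1 and 279 in 2-cell embryos, with a span of 14.8 to 35.8 in oocytes, 16.3 to 37.3 in 1-cell embryos, 13 to 56.9 in 8-cell embryos and 22.3 to 65 in blastocysts. Outside the 2-cell stage each neighbour in the order of means overlapped the next. Its oocyte to blastocyst change of 0.71 ± 0.30 (SE) had adjusted p = 0.0480 with limma. That call was lost in these settings. With limma it was 0.57 (adjusted p = 0.171) with hybridization control scaling, 0.39 (adjusted p = 0.0706) with the larger pseudocount and 0.71 (adjusted p = 0.0709) with no intensity filter. In limma it was 0.71 (adjusted p = 0.0511) with the replicate block, 0.65 (adjusted p = 0.103) without oocyte replicate 1 and 0.71 (adjusted p = 0.0738) without oocyte replicate 2. By limma it was 0.59 (adjusted p = 0.123) without oocyte replicate 4, 0.55 (adjusted p = 0.160) without blastocyst replicate 1 and 0.73 (adjusted p = 0.0661) without blastocyst replicate 2. Likewise in limma it was 0.61 (adjusted p = 0.119) without blastocyst replicate 4. The 1-cell to 8-cell change of 0.40 passed in limma at 0.71 (adjusted p = 0.0375) without 8-cell replicate 4.

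Of the genes for RNA and DNA processing, Rrp9 read 286, 306, 414 and 450.3 in 2-cell embryos. It read 19.5, 11, 9.9 and 15.2 in oocytes and 21.2, 9.9, 11.8 and 13.9 in 1-cell embryos. It read 33.8, 25.7, 32.4 and 51.5 in 8-cell embryos and 14.4, 13.6, 46.4 and 59.1 in blastocysts. Every 8-cell array lay above every 1-cell array, and the difference of 0.86 ± 0.29 (SE) passed with limma's adjusted p = 0.0120, while with hybridization control scaling it was 0.58 (adjusted p = 0.171). The blastocyst arrays were split, with replicates 1 and 2 at the oocyte level and replicates 3 and 4 above it. Their change from oocytes of 0.67 ± 0.29 (SE) had limma's adjusted p = 0.0474. That call was lost in these settings. With limma it was 0.58 (adjusted p = 0.156) with hybridization control scaling, 0.35 (adjusted p = 0.0741) with the larger pseudocount and 0.67 (adjusted p = 0.0687) with no intensity filter. In limma it was 0.67 (adjusted p = 0.0851) with the compared stages fitted alone, 0.62 (adjusted p = 0.0999) without oocyte replicate 2 and 0.60 (adjusted p = 0.113) without oocyte replicate 3. By limma it was 0.70 (adjusted p = 0.0592) without oocyte replicate 4, 0.50 (adjusted p = 0.170) without blastocyst replicate 3 and 0.41 (adjusted p = 0.229) without blastocyst replicate 4.

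The Ercc4 probe set 1448984_at read 175, 164, 185 and 187 in 2-cell embryos, the tightest of the peaks, with a coefficient of variation of 5.89%. It read 31.8, 29.9, 23 and 42.6 in oocytes, 7.8, 7.9, 28.1 and 7.4 in 1-cell embryos, 5.4, 9.5, 16.9 and 30.4 in 8-cell embryos and 39, 19.9, 29.7 and 12 in blastocysts. These 4 stages overlapped neighbour by neighbour. The fall from oocyte to 1-cell was -0.87 ± 0.29 (SE) with limma's adjusted p = 0.0217, with 3 of the 4 1-cell arrays below all oocyte arrays. This probe set was over the filter level on 2 arrays outside the 2-cell stage and so was tested through its 2-cell arrays, and with no intensity filter limma gave adjusted p = 0.0329. The call ended with limma without oocyte replicate 4, at -0.76 (adjusted p = 0.0752), and without 1-cell replicate 1, at -0.79 (adjusted p = 0.0643). It also ended without 1-cell replicate 2, at -0.79 (adjusted p = 0.0654), and without 1-cell replicate 4, at -0.78 (adjusted p = 0.0603). The other Ercc4 probe set, 1432272_a_at, showed no peak. It read 59.8, 32.9, 23.3 and 19.3 at the 2-cell stage, and all 5 stages overlapped within 13.4 to 76.5. None of its changes passed with limma in the 4 comparisons without 2-cell arrays, in which adjusted p ranged from 0.0529 to 0.692. Its 8-cell to blastocyst change passed in limma at -0.43 (adjusted p = 0.0443) with the larger pseudocount, -0.77 (adjusted p = 0.0477) with no intensity trend and -0.98 (adjusted p = 0.0227) without 8-cell replicate 1. It also passed in limma at -0.92 (adjusted p = 0.0295) without 8-cell replicate 4.

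Of the genes for mitochondria and NAD, Fundc1 gave with probe set 1453369_a_at 3873, 3049.5, 1702 and 1928 in 2-cell embryos, with a coefficient of variation of 38.4%. It read 107, 144, 109 and 116 in oocytes and 194, 204, 150.3 and 181 in 1-cell embryos. It then read 89.6, 53.1, 87.3 and 98.7 in 8-cell embryos, below every oocyte array, and 119.6, 124, 179.6 and 118 in blastocysts. No 8-cell array reached the lowest 1-cell array, and the change of -1.06 ± 0.22 (SE) had limma's adjusted p = 1.49e-04. The rise to blastocyst of 0.65 ± 0.22 (SE) had limma's adjusted p = 0.0191 and was lost without 8-cell replicate 2, at 0.49 (adjusted p = 0.0889), and without blastocyst replicate 3, at 0.52 (adjusted p = 0.0800). The oocyte to 1-cell change, 0.57 with limma adjusted p = 0.0535, passed in limma at 0.57 (adjusted p = 0.0433) with the stricter intensity filter, 0.57 (adjusted p = 0.0226) with the compared stages fitted alone and 0.65 (adjusted p = 0.0434) without oocyte replicate 2. It also passed in limma at 0.65 (adjusted p = 0.0436) without 1-cell replicate 3.

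The second Fundc1 probe set, 1424215_at, did not peak at the 2-cell stage at all. It read 84.4, 69.1, 80.8 and 45.1 in oocytes, 92.6, 73.3, 66.9 and 73 in 1-cell embryos and 97.3, 90.6, 98.2 and 65.3 in 2-cell embryos, and these stages overlapped. It rose to 180.3, 202, 203 and 224 in 8-cell embryos and 452, 473, 409 and 362 in blastocysts, where neither stage overlapped any other. With limma the log2 changes were 1.28 ± 0.19 (SE) from 1-cell to 8-cell (adjusted p = 9.96e-07) and 1.02 ± 0.19 (SE) from 8-cell to blastocyst (adjusted p = 7.86e-05). From 1-cell to 8-cell the probe sets of this gene moved in opposite directions. They are annotated to different cDNA sequences, and whether these are different transcripts was not tested.

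Nmnat1 read 204, 214, 253 and 200.1 in 2-cell embryos with probe set 1425773_s_at. It read 30.5, 28.9, 36.4 and 26.8 in oocytes and 3.1, 2.5, 3.8 and 4.9 in 1-cell embryos, with no overlap. That fall of -1.44 ± 0.23 (SE) had limma's adjusted p = 1.73e-05, and 1.72e-05 with no intensity filter. Outside the 2-cell stage 1 array of this probe set was over the filter level, so its 2-cell arrays, on which it was chosen, brought it into the test. After the peak it read 6.9, 5.3, 5.5 and 5.5 in 8-cell embryos and 10.8, 20.2, 5.7 and 22.5 in blastocysts, below every oocyte array. The oocyte to blastocyst fall of -0.71 ± 0.23 (SE) had limma's adjusted p = 0.00941 and was lost without blastocyst replicate 3, at -0.53 (adjusted p = 0.0553). The 8-cell to blastocyst change, 0.54 with limma adjusted p = 0.0590 as deposited, passed in limma at 0.69 (adjusted p = 0.0101) with quantile normalization, 0.76 (adjusted p = 0.00571) with median centring and 0.96 (adjusted p = 0.0117) with hybridization control scaling. It also passed in limma at 0.89 (adjusted p = 0.0350) with the smaller pseudocount, 0.54 (adjusted p = 0.0240) with no intensity trend and 0.72 (adjusted p = 0.0171) without blastocyst replicate 3. The dimmer probe set 1429819_at read 47.6, 65.2, 57 and 79.8 at the 2-cell stage and 9.5, 4, 10.1 and 9.8 in oocytes, and its oocyte to 1-cell change of -0.19 did not pass with limma (adjusted p = 0.701). Its 1-cell to 8-cell change of 0.66 did not pass with limma (adjusted p = 0.0749, and 0.0689 with no intensity filter). It passed in limma at 0.85 (adjusted p = 0.0292) without 1-cell replicate 4 and 0.94 (adjusted p = 0.0102) without 8-cell replicate 4. Outside the 2-cell stage 0 arrays of 1429819_at were over the filter level, so it too was tested only through its 2-cell arrays. The suffix _s_at marks a probe set whose probes match more than 1 transcript, so the value of 1425773_s_at could include another RNA.

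Of the genes for cytokine signalling, the receptor Tnfrsf12a read 374, 411, 548 and 517 in 2-cell embryos with probe set 1418571_at. It read 4.3, 4.6, 4.2 and 2.5 in oocytes and 11.5, 5.1, 3.4 and 6 in 1-cell embryos. It did not return to that level: the values were 48.3, 69.6, 40.4 and 14.5 in 8-cell embryos and 74.3, 21.7, 80.8 and 45 in blastocysts, all above every oocyte and 1-cell array. The limma changes were 1.48 ± 0.30 (SE) for 8-cell minus 1-cell (adjusted p = 1.23e-04) and 1.97 ± 0.30 (SE) for blastocyst minus oocyte (adjusted p = 2.64e-06). Probe set 1418572_x_at read 242, 235, 347 and 325 in 2-cell embryos and gave the same calls, with 2.31 ± 0.24 (SE) (adjusted p = 2.04e-09) and 1.76 ± 0.24 (SE) (adjusted p = 3.57e-07) in limma. The suffix _x_at marks probes that can cross-hybridize. Its 8-cell to blastocyst change was -0.62 ± 0.24 (SE) with limma's adjusted p = 0.0365. That call was lost in these settings. With limma it was -0.47 (adjusted p = 0.123) with quantile normalization, -0.40 (adjusted p = 0.203) with median centring and -0.72 (adjusted p = 0.0568) with the smaller pseudocount. In limma it was -0.62 (adjusted p = 0.0901) with the compared stages fitted alone, -0.44 (adjusted p = 0.158) without 8-cell replicate 1 and -0.62 (adjusted p = 0.0594) without 8-cell replicate 2. By limma it was -0.51 (adjusted p = 0.112) without blastocyst replicate 2 and -0.49 (adjusted p = 0.114) without blastocyst replicate 4. With hybridization control scaling limma turned it to 0.26 (adjusted p = 0.528).

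The cytokine gene Ifng read 290.2, 338, 156 and 155 in 2-cell embryos. The range was 5.9 to 15.8 in oocytes, 13.4 to 32.9 in 1-cell embryos, 8.3 to 30.1 in 8-cell embryos and 2.2 to 10.4 in blastocysts, so no array outside the 2-cell stage was over the filter level. None of the 4 comparisons without 2-cell arrays passed with limma, in which adjusted p ranged from 0.0641 to 0.367. The 8-cell to blastocyst change of -0.67 passed in limma at -1.23 (adjusted p = 0.0202) with the smaller pseudocount, -0.67 (adjusted p = 0.0491) with no intensity trend and -0.79 (adjusted p = 0.0411) without 8-cell replicate 4. It also passed in limma at -0.82 (adjusted p = 0.0403) without blastocyst replicate 3. The oocyte to blastocyst change of -0.52 passed in limma at -1.01 (adjusted p = 0.0412) with the smaller pseudocount. Ifng entered these tests through its 2-cell arrays alone. Because T and NK cells are the known source of Ifng, 10 of their genes were read on the same arrays. Their summed intensity was 239.0 to 319 at the 2-cell stage, against 219 to 368 in 1-cell embryos and 237 to 422 in 8-cell embryos. It was lower in oocytes, at 174.6 to 285.8 with some overlap, and in blastocysts, at 126.4 to 234.1 with none. Cd3d, Cd3g, Cd2 and Nkg7 were at or under the filter level on every 2-cell array, while Cd8a, Prf1 and Ncr1 were over it on every one. A list of 4 oviduct and blood genes was higher at the 2-cell stage, with a sum of 288.0 to 833 against 110.2 to 178 in 1-cell embryos, with Ovgp1 and Hba-a1 over the filter level on all 4 arrays, and 120.6 to 3203.0 at the 8-cell stage. Foxj1 and Ptprc of that list were at or under the filter level on all 2-cell arrays. The part of other cells in the Ifng signal was not tested.

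**Figure D1:**
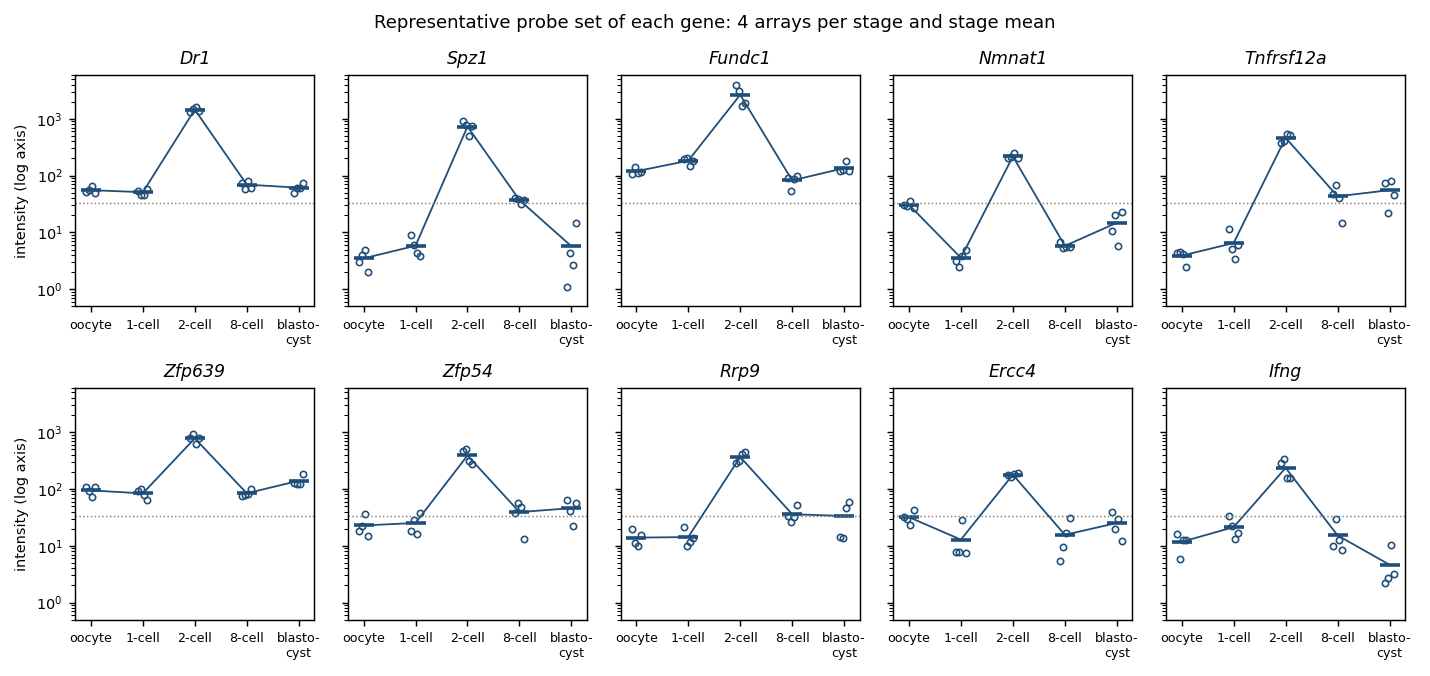
Intensity of the representative probe set of each gene on every array (circles, 4 per stage) with the stage mean (bars, joined by lines), on a log axis; the dotted line is the filter level of 32.9. In all 10 panels the 4 arrays of 2-cell embryos lie above every other array, and the genes differ in whether the other stages lie above or below the dotted line. The genes and their representatives were chosen with the 2-cell arrays included, so the first pattern restates that choice. Of the probe sets not shown, 1 each of Dr1, Fundc1 and Ercc4 was highest at another stage.

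Over the 10 representatives the ratio of the 2-cell mean to the next highest stage ran from 5.58 (Zfp639) to 20.9 (Dr1), with a median of 9.30. Of the 17208 probe sets tested, 49 (0.285%) had a ratio of at least 5.58. In each of the 12 probe sets highest at the 2-cell stage, every 2-cell array lay above every array of the other stages, which held for 4.13% of all tested probe sets. These figures restate how the genes were chosen. In the comparison of 2-cell with 1-cell embryos, 23.2% of tested probe sets were called higher and 21.5% lower, and from 2-cell to 8-cell 23.2% were higher and 25.2% lower. Since 5 of the 15 probe sets passed the filter through the 2-cell arrays alone, nothing was read from counts of the genes in those comparisons.

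The 2-cell arrays were not ordered alike across genes. Replicates 1 and 2 both lay above replicates 3 and 4 for 4 representatives (Spz1, Fundc1, Zfp54 and Ifng), and the reverse held for 3 (Tnfrsf12a, Rrp9 and Ercc4). Among all tested probe sets these patterns made up 21.4% each. The coefficient of variation over the 4 arrays ran from 5.89% (Ercc4) to 39.9% (Ifng).

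The comparisons without 2-cell arrays were not those that chose the genes. From oocyte to 1-cell, 3 of the 15 probe sets fell (Nmnat1, Ercc4 and the dimmer Dr1 probe set) and 0 rose in limma (1 at an unadjusted p under 0.05). Of all tested probe sets 15.3% were lower and 16.0% higher. From 1-cell to 8-cell, 6 rose and 1 fell, against 30.8% and 29.7% of all tested. From 8-cell to blastocyst, 4 rose and 2 fell, against 19.5% and 25.5%. From oocyte to blastocyst, 7 rose and 1 fell, against 28.5% and 30.7%. These counts include the 5 probe sets that entered the test through their 2-cell arrays alone (Spz1, both of Nmnat1, Ercc4 1448984_at and Ifng), so they are a description. Over the other 10 probe sets, 1 fell and 0 rose from oocyte to 1-cell, 5 rose and 1 fell from 1-cell to 8-cell, 4 rose and 1 fell from 8-cell to blastocyst, and 7 rose and 0 fell from oocyte to blastocyst in limma. At an unadjusted p under 0.05, 1 rose from oocyte to 1-cell and 0 fell from oocyte to blastocyst. Their median log2 changes were 0.08, 0.63, 0.25 and 0.69, against 0.11, 0.06, -0.21 and -0.12 for all tested probe sets. Of these probe sets, Dr1 1416018_at, both of Tnfrsf12a and that of Rrp9 were over the filter level on no oocyte or 1-cell array. Outside the 2-cell stage they passed the filter only through 8-cell and blastocyst arrays, where they were higher. The rises counted here partly follow from that, so these counts and medians are a description too. Of all 15 probe sets, with hybridization control scaling 6 were called from oocyte to 1-cell, 10 from 8-cell to blastocyst and 5 from oocyte to blastocyst. Under that scaling 7523, 7994 and 9646 of the 17208 tested probe sets were called in the same order. Without 8-cell replicate 2, 3 of the 15 were called from 8-cell to blastocyst, and without blastocyst replicate 4, 5 of the 15 from oocyte to blastocyst. Probe sets of the same gene are counted separately above. With 1 representative for each of the 10 genes, 0 rose and 2 fell from oocyte to 1-cell, and 3 rose and 1 fell from 1-cell to 8-cell. From 8-cell to blastocyst 2 rose and 1 fell, and from oocyte to blastocyst 4 rose and 1 fell. The median log2 changes of the representatives were 0.05, 0.28, 0.25 and 0.15 in the same order. The comparisons share stages, so their counts are not independent of each other.

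**Figure D2:**
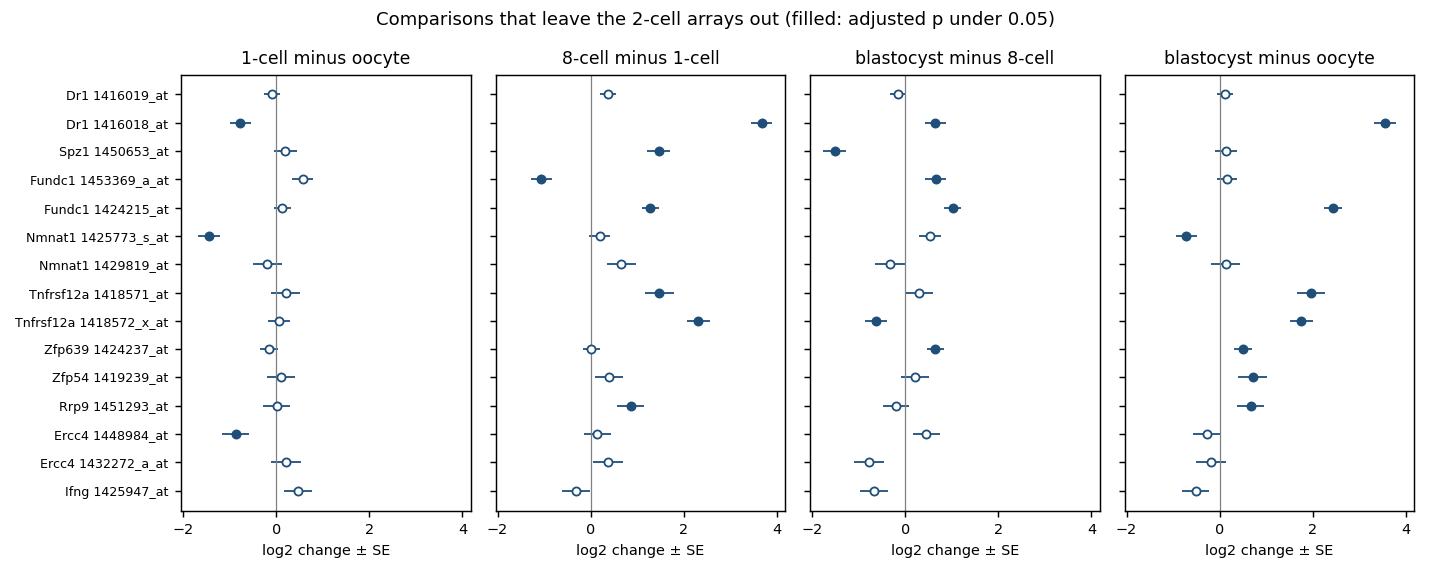
Log2 change with its standard error for all 15 probe sets in the 4 comparisons that leave out the 2-cell arrays; filled points passed at adjusted p under 0.05 in limma. The largest changes, 3.67 and 3.55, belong to the Dr1 probe set 1416018_at, and the Dr1 probe set 1416019_at is at 0.36 and 0.11 in the same comparisons.

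For the 5 genes with a pair of probe sets, the difference between their changes was tested in the 4 comparisons without 2-cell arrays, 20 tests in all. A two-sided exact permutation test over 4 arrays against 4 cannot give less than p = 0.0286, and with 20 tests the smallest adjusted value reached was 0.0816, so none passed. The differences were largest for Dr1, at -3.31 from 1-cell to 8-cell and -3.44 from oocyte to blastocyst on the log2 scale, and for Fundc1, at -2.34 and -2.28, each with the smallest exact p of 0.0286. For Nmnat1 the oocyte to 1-cell difference was -1.25 with exact p = 0.0286. For Tnfrsf12a the exact p ranged from 0.0857 to 0.686 and for Ercc4 from 0.0857 to 0.857.

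**Figure D3:**
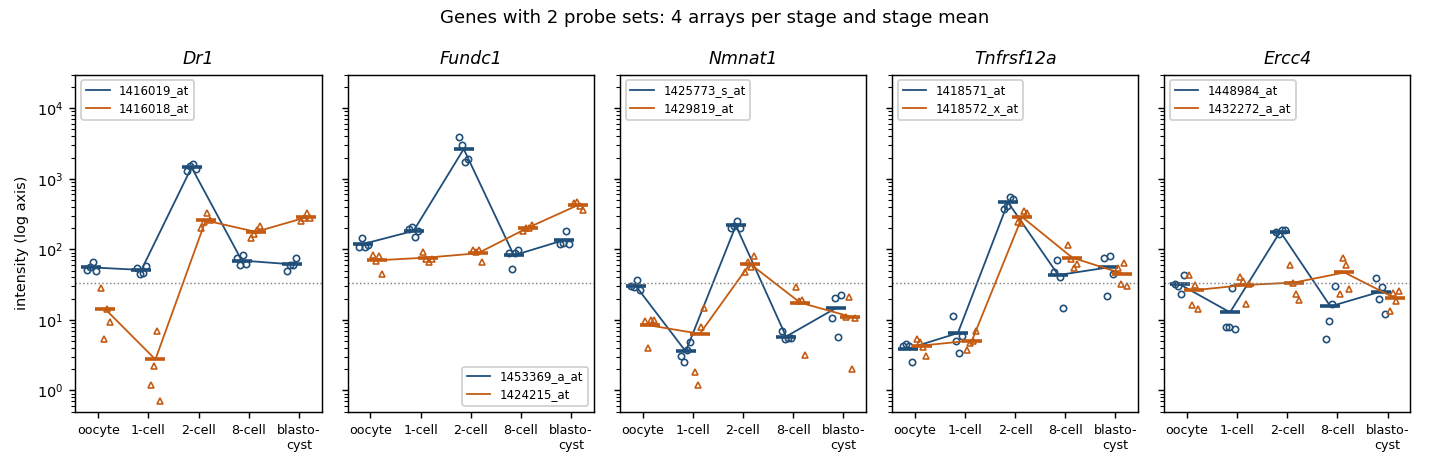
Intensity on a log axis of both probe sets of the 5 genes that have 2, with 4 arrays per stage (points) and stage means (bars joined by lines); the dotted line is the filter level. For Nmnat1 and Tnfrsf12a both probe sets are highest at the 2-cell stage, whereas 1 probe set each of Dr1, Fundc1 and Ercc4 is not.

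For each gene the 2 genes with the most similar profile were taken by Pearson's r of log2 values over the 20 arrays, among 10256 others. The points share arrays and stages, so r is only a description. All 10 genes were chosen for a high 2-cell mean. A high r among them, or with other genes highest at that stage, follows from that choice. Dr1 was closest to A630072M18Rik (r = 0.986) and to Zfp352 (r = 0.983), a gene known from 2-cell embryos that read 1994 ± 365 (SD, n = 4) there. A630072M18Rik was dim, at 50.9 ± 10.9 (SD, n = 4) in 2-cell embryos and a mean of at most 2.85 at any other stage. Spz1 was closest to Tdpoz1 (r = 0.983) and AF067063 (r = 0.973). Fundc1 was closest to Gm20767 (r = 0.972), and Ifng to Rad17 (r = 0.959) and Usp17la (r = 0.952). Tnfrsf12a was closest to Srsf10 (r = 0.967) and Ero1a (r = 0.962), and Rrp9 to Sqle (r = 0.962) and Dr1 (r = 0.956). Zfp639 and Zfp54 were closest to A630072M18Rik (r = 0.965 and r = 0.957), Nmnat1 to Uck2 (r = 0.930) and Ercc4 to Nmnat1 (r = 0.917). Among the 45 pairs of the 10 genes, r ran from 0.754 (Nmnat1 with Tnfrsf12a) to 0.964 (Dr1 with Spz1), with a median of 0.888.

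Known partners of these genes and genes of related processes were read next, from lists of pathway genes that hold none of the 10. Calls are limma's at adjusted p under 0.05 over all tested probe sets, with 1 probe set per gene. In the comparisons with the 2-cell stage, no named gene that passed turned direction under the other settings. Some changes that did not pass turned, among them that of Tbp into the 2-cell stage (-0.02 with quantile normalization and -0.10 with median centring). The list around Dr1 holds general transcription factors, the regulators Drap1 and Btaf1, and genes of histone acetyltransferase complexes such as Kat2a and Zzz3. Of its 24 listed genes 16 were tested. Of these, 6 rose and 5 fell from 1-cell to 2-cell and 0 rose (0 at an unadjusted p under 0.05) and 8 fell from 2-cell to 8-cell. Their median 8-cell minus 2-cell change was -0.48, against 0.06 for all tested, and stayed below 0 under the 3 other scalings (highest -0.46). The 8 that fell after the 2-cell stage became 13, and the 5 that fell into it 3, with hybridization control scaling. Drap1, the other subunit of negative cofactor 2, fell while Dr1 peaked, from 215 ± 90.8 (SD, n = 4) in 1-cell to 84.2 ± 15.6 in 2-cell embryos (log2 change -1.16, limma adjusted p = 0.00205). Tbp, the target of the complex, read 340.2 ± 32.6 and 344 ± 50.1 (log2 change 0.01, limma adjusted p = 0.975), which did not pass, and fell by 0.88 to the 8-cell stage (limma adjusted p = 1.44e-04). Gtf2b (TFIIB), whose entry to promoters the complex blocks, fell by 2.77 from 1-cell to 2-cell (limma adjusted p = 7.96e-12), and Gtf2f1, a TFIIF subunit, rose by 2.12 (limma adjusted p = 1.11e-09). Gtf2f2, the other TFIIF subunit, rose by 1.76 (limma adjusted p = 1.66e-08). The TFIID subunit gene Taf7 fell by 1.40 and then fell by 1.63 (limma adjusted p = 3.73e-05 and 4.11e-06), and Gtf2a1 of TFIIA fell by 1.26 after the 2-cell stage (limma adjusted p = 9.91e-06).

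The U3 processome, in which Rrp9 acts, was the largest of the lists. Of 28 tested genes of 32 listed, 17 rose and 5 fell from 1-cell to 2-cell, with a median change of 0.89 against -0.04 for all tested. The median stayed between 0.78 and 1.06 under the other scalings. Fbl (fibrillarin), the methyltransferase of the particle, rose from 97.6 ± 10.9 to 522 ± 76.8 (SD, n = 4; log2 change 2.28, limma adjusted p = 5.95e-10). Nol11 rose by 3.09 and Utp11 by 2.67, both processome subunits, while Nop56 changed by 0.23 and did not pass (limma adjusted p = 0.431). Among those that fell were Bms1 and Utp20, with changes of -1.19 and -0.91 (limma adjusted p = 1.80e-05 and 1.43e-04), and with hybridization control scaling the call for Utp20 was lost and 1 of the list fell. From 2-cell to 8-cell 11 rose and 3 fell, a split that turned to 1 and 6 with hybridization control scaling, where the median moved from 0.30 to -0.22. Of the 28 genes 4 were highest at the 2-cell stage, against 15.1% of all tested probe sets. From 1-cell to 8-cell 20 rose and 4 fell, with a median change of 1.20, and Rrp9 also rose, by 0.86.

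Around Ercc4, 18 of 24 nucleotide excision repair genes were tested, with 5 up and 6 down from 1-cell to 2-cell and 3 up and 6 down to the 8-cell stage. The medians were -0.12 and -0.05; the first turned to 0.07 with hybridization control scaling and the second to 0.04 with quantile normalization. Ercc1, the obligate partner of Ercc4 in the nuclease, read 37.8 ± 22.1 in 1-cell and 54 ± 13.5 in 2-cell embryos (SD, n = 4), a change of 0.52 that did not pass (limma adjusted p = 0.190). The nuclease gene Ercc5 rose by 1.34 and then fell by 2.03 (limma adjusted p = 3.19e-06 and 2.40e-09), and the TFIIH helicase gene Ercc3 rose by 3.29 (limma adjusted p = 4.09e-13). Genes of the single-strand binding protein RPA went both ways into the 2-cell stage. Rpa1 changed by -2.24, Rpa3 by -1.87 and Rpa2 by 1.91 (limma adjusted p = 2.73e-12, 2.62e-08 and 5.29e-08). The damage sensor gene Ddb2 fell by 1.58 and then fell by 1.64 (limma adjusted p = 1.96e-07 and 1.02e-07). The calls of the 3 that rose to the 8-cell stage were lost with hybridization control scaling.

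Of 21 tested mitophagy and autophagy genes around Fundc1 (23 listed), 8 rose and 4 fell from 1-cell to 2-cell, and 10 rose and 7 fell to the 8-cell stage, with medians of 0.31 and 0.19. The second median turned to -0.24 and the 10 became 6 with hybridization control scaling. Pgam5, the phosphatase known to act on Fundc1, fell by 1.07 into the 2-cell stage (limma adjusted p = 2.81e-04). Gabarapl2, of the family that mitophagy receptors bind, rose from 235 ± 24.6 to 1349 ± 193 (SD, n = 4) and again by 1.95 to the 8-cell stage (limma adjusted p = 1.05e-12 and 1.13e-10). The autophagy gene Atg5 fell by 1.73 and then fell by 1.97 (limma adjusted p = 1.75e-09 and 1.52e-10), and Becn1 fell by 1.44 after the 2-cell stage (limma adjusted p = 3.21e-07). Pink1, a kinase of another mitophagy route, rose by 1.44 and 2.12 (limma adjusted p = 4.54e-04 and 2.66e-06). The related Fundc2 read 22.1 ± 9.81 and 31 ± 9.05, which did not pass (limma adjusted p = 0.291).

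Of 11 tested genes of NAD synthesis and use around Nmnat1 (22 listed), 4 rose and 1 fell into the 2-cell stage and 1 rose and 4 fell after it, with medians of 0.47 and 0.04, the second turning to -0.27 with hybridization control scaling. Nampt, which makes the substrate of Nmnat1, rose from 57.6 ± 7.53 to 349.6 ± 44.3 (SD, n = 4; log2 change 2.37, limma adjusted p = 4.03e-12) and fell by 0.62 to the 8-cell stage (limma adjusted p = 0.00358). The NAD-consuming enzymes Parp2 and Parp1 rose by 2.95 and 1.22 (limma adjusted p = 1.30e-11 and 2.79e-04), and Parp1 rose again by 1.84 to the 8-cell stage (limma adjusted p = 9.88e-07). Sirt3, a mitochondrial deacylase that uses NAD, and the NAD kinase gene Nadk fell by 1.30 and 1.25 after the 2-cell stage (limma adjusted p = 6.66e-05 and 5.95e-07). The 1 gene that fell into the 2-cell stage was Haao, an enzyme of NAD synthesis from tryptophan, with a change of -1.19 (limma adjusted p = 0.0185). Its call was lost without 1-cell replicate 1 or 2 or 2-cell replicate 3, and 2 of the list fell without 2-cell replicate 2 or 4 or with median centring. The 1 that rose after the peak became 2 without 8-cell replicate 4.

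Around Tnfrsf12a, 16 of 21 TWEAK signalling genes were tested, with 5 up and 4 down into the 2-cell stage and 1 up and 6 down after it. The medians were -0.05 and -0.25, and the first turned to 0.12 with hybridization control scaling. Traf2, the adaptor bound by the receptor, rose from 7.12 ± 2.27 to 85.2 ± 17 (SD, n = 4; log2 change 2.33, limma adjusted p = 9.79e-09). Relb, a subunit of noncanonical NF-kappaB, rose by 2.21 and fell by 1.23 after the peak (limma adjusted p = 1.56e-06 and 0.00219). Birc3 (cIAP2), which Traf2 recruits, fell by 1.60 and then fell by 2.29 (limma adjusted p = 4.01e-09 and 4.23e-12). Mapk8 (JNK1), a kinase of the pathway, fell by 2.63 after the peak (limma adjusted p = 5.81e-13), and the Rac1 gene fell by 0.91 and then fell by 1.11 (limma adjusted p = 1.15e-05 and 5.46e-07). Nfkbia, the NF-kappaB inhibitor, was the 1 that rose after the peak, by 0.99 (limma adjusted p = 8.31e-05). Its call was lost with hybridization control scaling, where 2 of the list fell into the 2-cell stage. The ligand gene Tnfsf12 was not analysed here.

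Around Ifng, 19 of 27 genes of its receptor, signalling and targets were tested, and 1 rose and 4 fell into the 2-cell stage, against 23.2% and 21.5% of all tested probe sets. After it 3 rose and 3 fell, counts that were not stable. The 3 that rose became 1 without 2-cell replicate 3, 5 without 8-cell replicate 4 and 5 with the larger pseudocount. With hybridization control scaling the 3 calls were lost and 5 fell. Into the 2-cell stage 2 rose without 1-cell replicate 1, 1-cell replicate 2 or 2-cell replicate 3, with the larger pseudocount, with no intensity trend or with the compared stages alone, and 2 fell with hybridization control scaling. The medians were -0.09 and 0.27, turning to 0.05 and -0.08 with hybridization control scaling. Receptor genes Ifngr1 and Ifngr2 read 42.3 ± 10.7 and 47.1 ± 12.2 in 2-cell embryos (SD, n = 4), and neither change from 1-cell passed (limma adjusted p = 0.718 and 0.187). The kinase gene Jak2 was high through the 2-cell stage, at 1479.8 ± 295, and fell by 3.41 to the 8-cell stage (limma adjusted p = 5.36e-15). The 1 gene that rose was Socs3, a feedback inhibitor of several cytokine receptors, from 19.5 ± 10.3 to 1375 ± 571 (limma adjusted p = 2.02e-11). Among the targets, Irf8 fell by 1.13 (limma adjusted p = 0.00267), and Igtp changed by 0.58, which did not pass (limma adjusted p = 0.0551), and then fell by 1.49 (limma adjusted p = 8.77e-06). The inhibitor gene Socs1 fell by 1.04 (limma adjusted p = 0.0109), a call lost without 2-cell replicate 3 and with hybridization control scaling.

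Beside the zinc finger genes, 14 of 15 listed genes of KRAB corepressors and their chromatin partners were tested. Whether Zfp54 or Zfp639 acts with these corepressors was not tested. From 1-cell to 2-cell 2 rose and 7 fell, with a median of -0.61, below the median of all tested under each scaling. Trim28, the corepressor that KRAB domains bind, changed by -0.47 and did not pass (limma adjusted p = 0.0734). The maternal KRAB zinc finger gene Zfp57 fell from 661 ± 305 to 34.7 ± 10.8 (SD, n = 4; limma adjusted p = 1.24e-11), the reverse of Zfp54 and Zfp639, and the deacetylase gene Hdac1 rose from 47.3 ± 12.3 to 835 ± 125 (limma adjusted p = 3.89e-16). The DNA methylation genes Dnmt1 and Uhrf1 changed by -2.32 and -1.52 into the 2-cell stage and by -1.21 and -2.96 after it (limma adjusted p = 1.74e-11, 7.76e-08, 2.23e-06 and 2.17e-13). To the 8-cell stage 2 rose (Trim28 and Hdac1) and 6 fell. Those 2 calls were lost with hybridization control scaling, where 4 of the list fell into the 2-cell stage. Of 12 tested helix-loop-helix zipper and testis genes set beside Spz1 (21 listed), 4 rose and 1 fell into the 2-cell stage and 1 rose and 1 fell after it, with medians of 0.17 and 0.15, the second turning to -0.24 with hybridization control scaling. After the 2-cell stage the number that rose ran from 0 to 3 and the number that fell from 1 to 2 over the other settings, and leaving out single arrays moved the number that rose too (0 without 8-cell replicate 1 or 3, 2 without 2-cell replicate 4 or 8-cell replicate 2). Into it 2 fell without 2-cell replicate 4. The 1 that fell was Mlx, with a change of -1.44 (limma adjusted p = 6.08e-06), and Ppp1cc, a phosphatase needed in testis, rose by 2.08 (limma adjusted p = 4.89e-11). Ldhc, the testis lactate dehydrogenase, had a peak like that of Spz1: it rose by 2.72 and fell by 2.59 (limma adjusted p = 1.65e-08 and 3.72e-08), from 15.6 ± 8.19 in 1-cell to 173 ± 64.4 in 2-cell embryos (SD, n = 4).

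**Figure D4:**
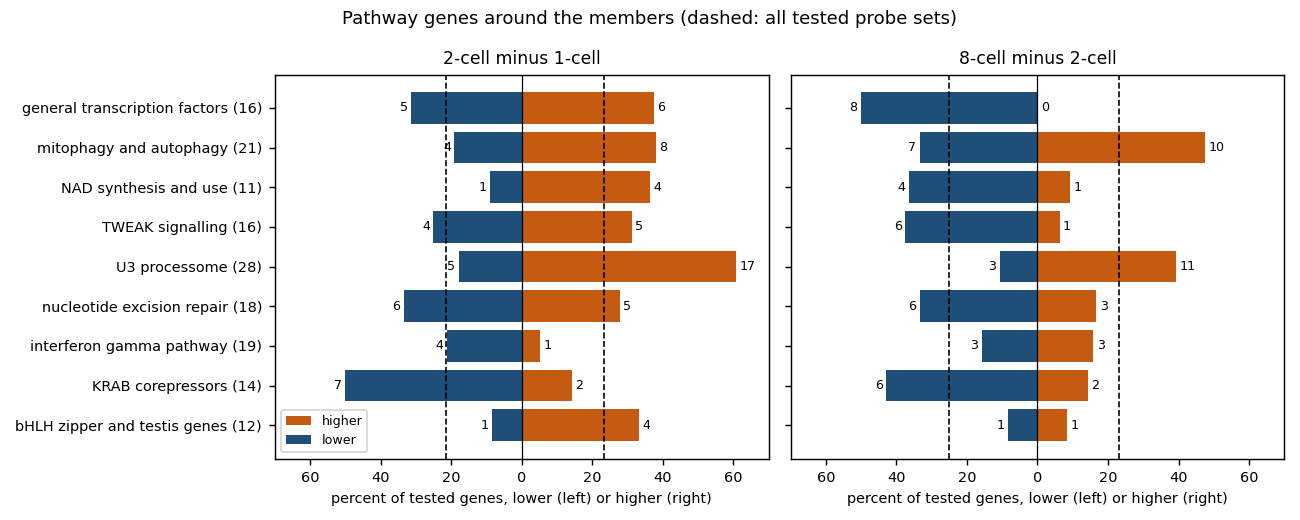
Percent of tested genes of each pathway list called higher (right) or lower (left) in limma from 1-cell to 2-cell and from 2-cell to 8-cell, with the count at each bar and the number tested beside each name; dashed lines are the percents of all tested probe sets. The U3 processome has the longest bar to the right from 1-cell to 2-cell (17 of 28). The list labelled general transcription factors has the longest to the left from 2-cell to 8-cell (8 of 16). That list also holds Drap1, Btaf1 and genes of histone acetyltransferase complexes.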

How the data were processed

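The authors deposited 1 linear intensity per probe set and array, scaled to a common level: the mean after trimming 2% at each end was 150.051 to 150.078 on every array. The software, the background step and any detection calls were each not given in the sources used here. Of 22690 probe sets, 64 are controls, 20380 carry 1 gene symbol in the platform annotation, 691 several and 1555 none; symbols were taken from the first kind alone. Values were transformed as log2(intensity + 12.15), a pseudocount of the pooled median of 48.6 divided by 4. The filter kept 17208 probe sets that exceeded 32.9, the 40th percentile of all values, on 4 or more arrays. The 5 stages were fitted together with limma 3.58.1 in R 4.3.3 (lmFit, eBayes with intensity trend, 15 residual degrees of freedom), with Benjamini-Hochberg adjustment over all tested probe sets and calls at adjusted p under 0.05; the steps were tested on simulated data. The precision is limited by 4 arrays per stage. The 10 genes and the pathway lists were chosen with earlier results of these data known. The rule for named genes took all 10 genes, direct partners, and from each list up to 2 genes with the largest rise and 2 with the largest fall into and after the 2-cell stage; of these, a part is named in the text. A gene's representative is its probe set with the highest mean log2 value. Alternatives covered scaling, pseudocount, filter, trend, samples fitted, the replicate block and leaving out each array.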

Additional observations from a re-analysis of the deposited data

Results flagged for a closer look

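Within the groups of 4 arrays, 7 of the 75 combinations of probe set and stage held an array apart from the other 3, with a gap to its nearest neighbour above 0.829 of the whole range (Dixon's 95% critical value). Chance alone gives about 1 in 20. Fundc1 (1453369_a_at) read 179.6 on blastocyst replicate 3, against 118.1 to 124.3 on the other arrays. Zfp639 read 181.4 on blastocyst replicate 4, against 122.8 to 127.6, and 101.2 on 8-cell replicate 4, against 75.9 to 80.1. Ercc4 (1448984_at) read 28.1 on 1-cell replicate 3, against 7.4 to 7.9. Ifng read 10.4 on blastocyst replicate 3, against 2.2 to 3.2. Nmnat1 read 6.9 on 8-cell replicate 1, against 5.3 to 5.5, with 1425773_s_at, and 4.0 on oocyte replicate 2, against 9.5 to 10.1, with 1429819_at. None of the 7 was among the 2-cell arrays.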

How the results depend on the processing

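With hybridization control scaling the number of the 15 probe sets called was 6 in place of 3 for 1-cell minus oocyte, 10 in place of 6 for blastocyst minus 8-cell and 5 in place of 8 for blastocyst minus oocyte. In these comparisons and in 8-cell minus 1-cell the other settings, quantile normalization, median centring, smaller and larger pseudocounts, no filter, a stricter filter, no intensity trend, the replicate block and the compared stages alone, kept each count within 1.5 times its value. The replicate block gave 3, 6, 7 and 7 called probe sets for 1-cell minus oocyte, blastocyst minus 8-cell, 8-cell minus 1-cell and blastocyst minus oocyte, against 3, 6, 7 and 8 without it, and the call it ended was that of Zfp54 (adjusted p = 0.0511 in limma). Arrays with the same number did not deviate together in the comparisons fitted (correlations from -0.16 to 0.10). Weak correlations cannot show whether the same number marks a shared collection. Over arrays left out in turn the counts ran from 2 to 4, 3 to 8, 7 to 9 and 5 to 7, with 3 for blastocyst minus 8-cell without 8-cell replicate 2 and 5 for blastocyst minus oocyte without blastocyst replicate 4. Directions that turned belong to changes that passed no test as deposited, except for Tnfrsf12a 1418572_x_at. With quantile normalization the 1-cell minus oocyte change became -0.074 for Rrp9, and the blastocyst minus 8-cell change became 0.022 for Dr1 and 0.029 for Rrp9, and the 8-cell minus 1-cell change became -0.067 for Zfp639. With median centring the 1-cell minus oocyte change became -0.047 for Rrp9, and the blastocyst minus 8-cell change became 0.072 for Dr1 and 0.027 for Rrp9, and the 8-cell minus 1-cell change became -0.076 for Zfp639. With hybridization control scaling the 1-cell minus oocyte change became -0.10 for Spz1, -0.36 for Fundc1, -0.13 for Tnfrsf12a, -0.57 for Zfp54, -0.57 for Rrp9, -0.11 for Ifng, -0.75 for Fundc1 1424215_at, -0.23 for Tnfrsf12a 1418572_x_at and -0.53 for Ercc4 1432272_a_at, and the blastocyst minus 8-cell change became 0.74 for Dr1, 0.56 for Rrp9, 0.20 for Nmnat1 1429819_at and 0.26 for Tnfrsf12a 1418572_x_at, and the 8-cell minus 1-cell change became -0.27 for Zfp639 and -0.010 for Ercc4, and the blastocyst minus oocyte change became -0.11 for Dr1 and -0.089 for Fundc1. Leaving out 1 array turned small changes, which ranged over -0.051 to 0.26 for Zfp54 in 1-cell minus oocyte, -0.11 to 0.11 for Rrp9 in 1-cell minus oocyte, -0.031 to 0.22 for Fundc1 1424215_at in 1-cell minus oocyte, -0.023 to 0.59 for Tnfrsf12a in blastocyst minus 8-cell, -0.096 to 0.44 for Zfp54 in blastocyst minus 8-cell, -0.46 to 0.027 for Rrp9 in blastocyst minus 8-cell, -0.095 to 0.10 for Zfp639 in 8-cell minus 1-cell, -0.089 to 0.40 for Ercc4 in 8-cell minus 1-cell, -0.078 to 0.26 for Spz1 in blastocyst minus oocyte, -0.060 to 0.35 for Nmnat1 1429819_at in blastocyst minus oocyte and -0.35 to 0.012 for Ercc4 1432272_a_at in blastocyst minus oocyte. The cause was not tested. Of 592 values under other settings 534 kept direction and side of the threshold, 16 lost the call and 17 gained one, and of 480 with an array left out 425, 28 and 10 did. The values of the probe sets that do not represent their gene, and the list counts under other settings, were added after seeing the data. For the pathway lists, leaving out 1 array gave 16 to 18 U3 processome genes rising into the 2-cell stage. It gave 7 to 9 genes of the list around Dr1 falling after it. Signals under 32.9 limit the dim probe sets, whose stages other than 2-cell carry little information on order.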
